A study of Mus musculus with 14 samples.

Results

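The 10 genes described here are factors and products of epithelial-mesenchymal transition (EMT). They are the transcription factors Snai1, Snai2, Twist1, Twist2, Zeb1 and Zeb2, the intermediate filament gene Vim, the epithelial surface gene Epcam, and the epithelial transcription factors Grhl2 and Ovol1. They were chosen by name, and each has 1 row among the 35275 genes of the expression table. Expression was measured in mouse ovarian tumor cells grown for 5 days as tumorspheres, which are clusters of cells that float without attachment, in serum-free medium. The 14 samples fall into 5 lines. KMF cells (n = 3) are the parental line, derived from ID8 ovarian surface epithelial cells by passage through C57Bl6 mice and recovery from ascites, and their gains include Myc and Ptk2. FAK KO cells (n = 3) are KT13, 1 clone of KMF cells in which CRISPR was directed at Ptk2, the gene for focal adhesion kinase (FAK). FAK-WT cells (n = 3) are KT13 cells with lentiviral GFP-FAK, and FAK-R454 cells (n = 2) are KT13 cells with GFP-FAK that carries the kinase-inactivating R454 mutation. β-catenin ΔGSK cells (n = 3) are KT13 cells with retroviral active β-catenin that lacks its GSK phosphorylation sites, and they have no re-expressed FAK. All lines other than KMF thus descend from 1 clone, so that the loss of FAK and other properties of that clone cannot be told apart. The labels number the samples of each line as replicates. The study's methods call the KMF samples independent and place them at different passages. How samples of the other lines were separated is not given in the sources used here, so p-values measure the spread between these samples.

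In EMT, epithelial cells loosen their cell-cell junctions and take on the shape and movement of mesenchymal cells. Factors of the Snail, Zeb and Twist families bind E-box sequences and repress epithelial genes, while Grhl2 and Ovol1 maintain the epithelial state and oppose the Zeb factors. Cells of the ovarian surface epithelium are an unusual epithelium of mesothelial type, which carries keratins together with vimentin.

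Values are FPKM, which are fragments scaled to the length of the gene and to the total of the library. The libraries held 25390558 to 35289859 fragments on genes. Ptk2, the targeted gene, was between 17.6 and 20.5 FPKM in FAK KO samples and between 23.9 and 24.8 FPKM in KMF samples. It was between 42.3 and 45.4 FPKM in FAK-WT samples, between 59.2 and 65.5 FPKM in FAK-R454 samples, and between 15.1 and 15.9 FPKM in β-catenin ΔGSK samples. An edited gene can still be transcribed, so the FAK KO values do not check the loss of the protein. Markers of ovarian surface epithelium and mesothelium were present in every sample, with 9 of 9 found and a sum between 1080.2 and 1821 FPKM that was mostly keratins. Single markers moved between lines. Upk3b rose from a mean of 4.03 FPKM in the FAK KO to 31.6 FPKM in the FAK-R454 line (log2 fold change 2.96, limma adjusted p = 4.30e-05), and Wt1 rose from 97.8 FPKM in the FAK KO to 227 FPKM in the β-catenin ΔGSK line (log2 fold change 1.21, limma adjusted p = 8.86e-07). Of the 7 markers tested in β-catenin ΔGSK over FAK KO cells 3 were higher and 2 lower, the lower ones being Krt8 (-0.81, limma adjusted p = 9.75e-05) and Msln (-0.55, limma adjusted p = 0.00216). Of all genes tested there, 23.7% were higher and 34.4% lower. The part of these markers in the results was not tested. Among 6 leukocyte markers, Cd3e was at 0 in all lines and Ptprc was at 0 in all lines but β-catenin ΔGSK, where its mean was 0.00253 FPKM. The sum of the leukocyte markers was between 1.05 and 12.3 FPKM and was mostly Cd68, whose mean was 8.62 FPKM in the FAK-WT line, 2.99 FPKM in the FAK KO line and 1.32 FPKM in the β-catenin ΔGSK line. The sum of 5 endothelial markers was between 0.386 and 1.35 FPKM. The sum of 6 fibroblast markers was between 35.1 and 51.5 FPKM in β-catenin ΔGSK samples and between 214 and 349 FPKM in the other samples. In bulk RNA, fewer cells of a type and less RNA per cell cannot be told apart.

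In these tumorspheres 5 of the 10 genes were above 1 FPKM in at least 1 line. Vim was among the most abundant mRNAs of the cells, and ranked 27 of 35275 genes by its mean. Snai1, Zeb1, Zeb2 and Snai2 followed at far lower levels, with ranks of 6813, 7192, 8854 and 10664. The other 5 genes were under 1 FPKM in all lines, with 0 to 39 fragments per library. Epcam reached 0.650 FPKM at most, Ovol1 0.370, Grhl2 0.202 and Twist2 0.0885, and Twist1 was at 0 in all 14 samples. The highest line exceeded the lowest by 8.96 times for Snai1, 2.35 times for Snai2, 1.55 times for Vim, 1.32 times for Zeb1 and 1.27 times for Zeb2.

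**Figure D1:**
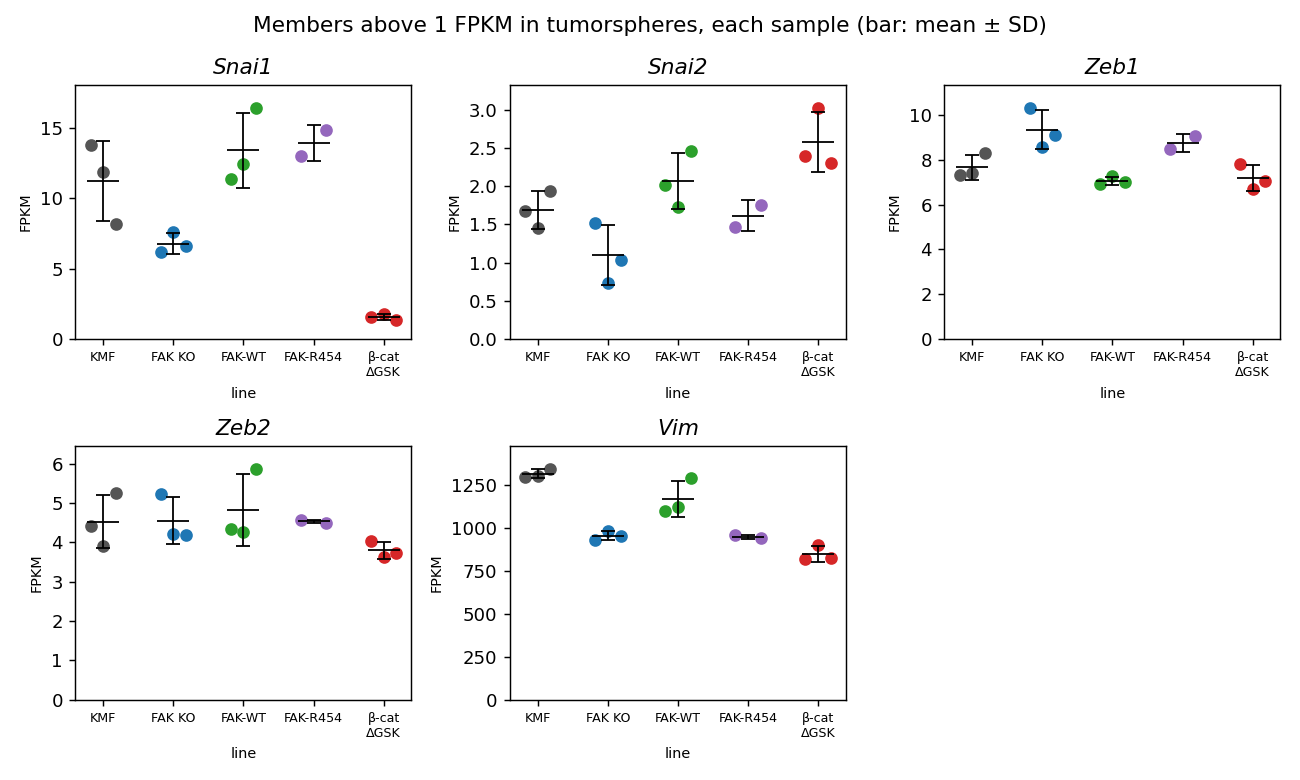
FPKM of the 5 genes above 1 FPKM in each of the 14 samples, with 1 panel per gene, 1 point per sample and bars for the mean ± SD of each line. Snai1 is lowest in the 3 β-catenin ΔGSK samples (1.34 to 1.80 FPKM), where Snai2 is highest by its mean (2.58 FPKM), and Vim is highest in the 3 KMF samples (1300.2 to 1346 FPKM).

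Lines were compared 2 at a time with limma on log2(FPKM + 0.1), over genes with a mean above 1 FPKM in at least 1 of both lines. A gene passed when its Benjamini-Hochberg adjusted p over all genes tested was under 0.05, at any fold change. The comparisons of FAK-WT, FAK-R454, β-catenin ΔGSK and KMF cells with FAK KO cells share the same 3 FAK KO samples, so a chance deviation of those samples enters all of them.

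Snai1 (ENSMUSG00000042821, chr2:167538195-167542814, plus strand, GRCm38) encodes Snail, a zinc finger repressor of epithelial genes such as that for E-cadherin. Its FPKM was 6.15, 7.57 and 6.61 in the FAK KO samples. In FAK-WT samples it was 11.4, 12.4 and 16.4, in FAK-R454 samples 13.0 and 14.8, and in KMF samples 13.8, 11.8 and 8.15. In β-catenin ΔGSK samples it was 1.52, 1.80 and 1.34. The FAK-R454, FAK-WT and KMF values overlapped in this order of their means, all lay above the FAK KO values, and all β-catenin ΔGSK values lay below every other sample. Relative to FAK KO cells, Snai1 rose 1.95-fold in FAK-WT cells (log2 fold change 0.96, standard error [SE] 0.14, limma adjusted p = 0.00145). It rose 2.04-fold in FAK-R454 cells (log2 fold change 1.03, SE 0.11, limma adjusted p = 6.53e-04) and 1.62-fold in KMF cells (log2 fold change 0.70, SE 0.17, limma adjusted p = 0.0102). In β-catenin ΔGSK cells it was 4.17-fold lower than in FAK KO cells (log2 fold change -2.06, SE 0.13, limma adjusted p = 3.68e-06). Between FAK-WT and FAK-R454 cells the log2 fold change of Snai1 was -0.07 with a 95% interval from -0.46 to 0.32, and between FAK-WT and KMF cells it was 0.27 with an interval from -0.22 to 0.75 (limma adjusted p = 0.803 and 0.337). The sum of the fibroblast markers was also lowest in β-catenin ΔGSK samples, though Dcn was lowest by its mean in KMF cells (33.1 FPKM, against 38.6 FPKM in the β-catenin ΔGSK line), and the part of these markers in the Snai1 value was not tested. Ctnnb1, which encodes β-catenin, averaged 214 FPKM with the construct (β-catenin ΔGSK). Without it the mean was 199.9 FPKM in KMF, 145 FPKM in FAK KO, 136 FPKM in FAK-R454 and 129 FPKM in FAK-WT cells.

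The 250 bases upstream of the Snai1 start were read from RefSeq promoters of GRCm38 (chr2:167537945-167538194, plus strand), since Snai1 had the widest range over the lines. Windows of 6 of the 10 genes could be matched there. On both strands, 2 kinds of motif were searched, the E-box CAGGTG that Snail and Zeb factors bind, and the Tcf/Lef letters CTTTGAT or CTTTGAA, through which β-catenin acts on promoters. Capitals mark the E-box.
Snai1: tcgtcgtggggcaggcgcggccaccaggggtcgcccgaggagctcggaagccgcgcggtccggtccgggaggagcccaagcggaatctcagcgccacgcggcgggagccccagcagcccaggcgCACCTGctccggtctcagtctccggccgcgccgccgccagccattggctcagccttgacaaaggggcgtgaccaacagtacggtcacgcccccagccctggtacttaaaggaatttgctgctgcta
The match, CACCTG, is the reverse complement of CAGGTG and begins 126 bases before the start. No Tcf/Lef letters were found in this window. Of all 32851 promoter windows of this length, 17.2% held CAGGTG on either strand and 7.48% held a Tcf/Lef match. A match of letters is not a bound site.

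Snai2 (ENSMUSG00000022676, chr16:14705852-14709395, plus strand) encodes Slug, the close relative of Snail. Its FPKM was 1.52, 0.736 and 1.04 in FAK KO samples, 2.01, 1.72 and 2.46 in FAK-WT samples, and 1.47 and 1.76 in FAK-R454 samples. In KMF samples it was 1.68, 1.45 and 1.94, and in β-catenin ΔGSK samples 2.39, 3.03 and 2.31. FAK-WT and β-catenin ΔGSK values lay above all FAK KO values, while those of KMF and FAK-R454 cells overlapped them. Relative to FAK KO cells, Snai2 rose 2.30-fold in β-catenin ΔGSK cells (log2 fold change 1.20, SE 0.24, limma adjusted p = 0.00240), the line in which Snai1 was lowest. In FAK-WT cells it rose 1.86-fold (log2 fold change 0.89, SE 0.25, limma adjusted p = 0.0216). This call was lost without FAK KO replicate 3 (limma adjusted p = 0.0637) and without FAK-WT replicate 3 (limma adjusted p = 0.0554), and with no filter on low values (limma adjusted p = 0.0542). In FAK-R454 cells the log2 fold change was 0.56 with a 95% interval from -0.06 to 1.19, and in KMF cells it was 0.62 with an interval from 0.08 to 1.16 (limma adjusted p = 0.172 and 0.0562). Without FAK KO replicate 1, the highest of its line, the values were 0.81 in FAK-R454 cells and 0.86 in KMF cells and both passed (limma adjusted p = 0.0398 and 0.0106). These were the largest values with 1 sample left out, and the smallest were 0.33 in FAK-R454 and 0.39 in KMF cells. In KMF cells the limma adjusted p then reached up to 0.150. In KMF cells Snai2 also passed with median-of-ratios scaling (limma adjusted p = 0.0404), in 1 fit of all 5 lines (adjusted p = 0.0246), and on recovered fragments (limma-voom adjusted p = 0.0426).

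Zeb1 (ENSMUSG00000024238, chr18:5591860-5775467, plus strand) and Zeb2 (ENSMUSG00000026872, chr2:44983634-45117395, minus strand) encode large zinc finger and homeodomain factors that repress E-cadherin. Zeb1 was 10.3, 8.60 and 9.14 FPKM in FAK KO samples and 8.49 and 9.06 FPKM in FAK-R454 samples. It was 6.91, 7.28 and 7.01 FPKM in FAK-WT samples, 7.32, 7.40 and 8.30 FPKM in KMF samples, and 7.83, 6.69 and 7.08 FPKM in β-catenin ΔGSK samples. The FAK KO values overlapped those of FAK-R454 cells and lay above all others. Relative to FAK KO cells, Zeb1 had a log2 fold change of -0.40 in FAK-WT cells (SE 0.08, limma adjusted p = 0.00800), -0.37 in β-catenin ΔGSK cells (SE 0.10, limma adjusted p = 0.0104) and -0.28 in KMF cells (SE 0.09, limma adjusted p = 0.0296). It fell by 0.31 on the log2 scale from FAK-R454 to FAK-WT cells (SE 0.06, limma adjusted p = 0.0433). In FAK-R454 over FAK KO cells it was -0.09 (limma adjusted p = 0.523).

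These Zeb1 values moved with those of its chromosome. The median log2 fold change of the 293 to 297 genes tested on chromosome 18 relative to FAK KO cells was -0.36 for FAK-WT, -0.38 for β-catenin ΔGSK, -0.38 for KMF and -0.14 for FAK-R454 cells. Between FAK-WT and FAK-R454 cells the median was -0.22. The medians of the genes on all other chromosomes were between -0.08 and -0.03 in these 5 comparisons. When the median change of each chromosome was subtracted in every sample, which was added after seeing the data, Zeb1 passed in none of the 6 comparisons. Its log2 fold change from FAK KO cells was then -0.03 for FAK-WT, 0.05 for FAK-R454, 0.01 for β-catenin ΔGSK and 0.10 for KMF cells (limma adjusted p = 0.782, 0.682, 0.912 and 0.313), with the sign reversed in the last 3. Between FAK-WT and FAK-R454 cells it was -0.08 (limma adjusted p = 0.503). Another centring removed the median level of the chromosome's genes in each sample, which differed between lines by other amounts than the median change, by -0.49 in β-catenin ΔGSK and -0.44 in KMF over FAK KO cells and by 0.14 in FAK-WT over KMF cells. With it Zeb1 was -0.08 for FAK-WT, 0.01 for FAK-R454, 0.11 for β-catenin ΔGSK and 0.16 for KMF over FAK KO cells, and passed in none of these (limma adjusted p between 0.0787 and 0.906). In FAK-WT over KMF cells Zeb1 was -0.12 as fitted and -0.13 with the median change subtracted, neither of which passed (limma adjusted p = 0.227 and 0.186), and -0.25 with the median level centred, which passed (limma adjusted p = 0.0193). The Zeb1 call in KMF cells was also lost without KMF replicate 1 or 2 or FAK KO replicate 1 or 3 (limma adjusted p between 0.0687 and 0.104) and with no filter (0.0528). That in FAK-WT over FAK-R454 cells was lost without FAK-WT replicate 1 or 2 or either FAK-R454 replicate (limma adjusted p between 0.114 and 0.305). It was lost as well with no filter, a filter of 0.1 FPKM, median-of-ratios scaling, no trend and 1 fit of all 5 lines (adjusted p between 0.0520 and 0.0711).

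**Figure D2:**
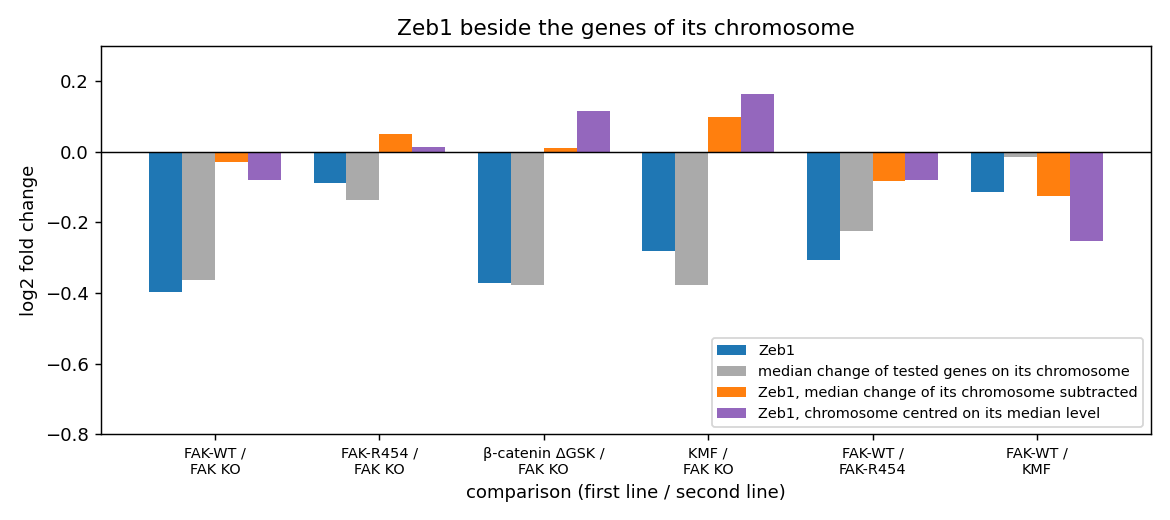
Log2 fold change of Zeb1 in 6 comparisons (blue), the median log2 fold change of all tested genes on its chromosome (grey), Zeb1 after that median change was subtracted in each sample (orange), and Zeb1 after the chromosome was centred on its median level (purple). In the FAK-WT, β-catenin ΔGSK and KMF comparisons with FAK KO cells the blue bars (-0.40, -0.37 and -0.28) lie near the grey bars (-0.36, -0.38 and -0.38).

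Zeb2 was 5.23, 4.22 and 4.20 FPKM in FAK KO samples, 4.34, 4.26 and 5.87 FPKM in FAK-WT samples, and 4.56 and 4.50 FPKM in FAK-R454 samples. It was 4.42, 3.91 and 5.26 FPKM in KMF samples and 4.03, 3.62 and 3.73 FPKM in β-catenin ΔGSK samples. The β-catenin ΔGSK values lay below every FAK-WT, FAK-R454 and FAK KO value and overlapped those of KMF cells, and all other lines overlapped. In β-catenin ΔGSK over FAK KO cells its log2 fold change was -0.25 with a 95% interval from -0.51 to 0.01, which did not pass (limma adjusted p = 0.0860). On recovered fragments the value was -0.26 and passed (limma-voom adjusted p = 0.0492). With 1 sample left out it ran from -0.30 to -0.15 and did not pass (limma adjusted p between 0.0678 and 0.278). In the other 5 comparisons it was between -0.01 and 0.08 (limma adjusted p from 0.688 to 0.990). The kit is not stated to keep the strand, so fragments of antisense genes cannot be told from those of the Zeb genes. The antisense gene Zeb2os reached 0.677 FPKM, and Gm10125, on the strand opposite to Zeb1, reached 0.447 FPKM.

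Vim (ENSMUSG00000026728, chr2:13573927-13582826, plus strand) encodes vimentin, the intermediate filament of mesenchymal cells. It was 1300.2, 1301 and 1346 FPKM in KMF samples, 1099, 1121 and 1293 FPKM in FAK-WT samples, and 932, 982 and 954 FPKM in FAK KO samples. In FAK-R454 samples it was 957 and 939.6 FPKM, and in β-catenin ΔGSK samples 820.0, 904 and 827 FPKM. KMF values were the highest, FAK-WT values lay between those of KMF and FAK KO cells without overlap, FAK KO and FAK-R454 values overlapped, and β-catenin ΔGSK values were the lowest. Vim was 1.38-fold higher in KMF than in FAK KO cells (log2 fold change 0.46, SE 0.07, limma adjusted p = 8.54e-04). In FAK-WT cells it was 1.22-fold that of FAK KO cells (log2 fold change 0.29, SE 0.09, limma adjusted p = 0.0276). With chromosomes centred on their median level it was 0.46 and with their median change subtracted 0.47 (limma adjusted p = 0.00668 and 0.00635). This call was lost with no filter on low values (limma adjusted p = 0.129), and without FAK KO replicate 1, FAK KO replicate 3 or FAK-WT replicate 2 (limma adjusted p between 0.0649 and 0.0949). For FAK-R454 against FAK KO cells the log2 fold change was -0.01, with a 95% interval from -0.15 to 0.13 (limma adjusted p = 0.910). The direct difference between FAK-WT and FAK-R454 cells was 0.30 with an interval from 0.08 to 0.52 and did not pass (limma adjusted p = 0.102). It was 0.23 and passed without FAK-WT replicate 3, the highest of its line (limma adjusted p = 0.00365), and it also passed in 1 fit of all 5 lines (adjusted p = 0.0353). In FAK-WT over KMF cells Vim was -0.17 and did not pass (limma adjusted p = 0.179). Without FAK-WT replicate 3 it was -0.25 and passed (limma adjusted p = 0.0266).

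Vim was 1.12-fold lower in β-catenin ΔGSK than in FAK KO cells (log2 fold change -0.17, SE 0.06, limma adjusted p = 0.0477). This was the largest adjusted p among the calls of the 5 tested genes. The call was lost with median-of-ratios scaling (log2 fold change -0.07, limma adjusted p = 0.437), with chromosomes centred on their median level (-0.11, limma adjusted p = 0.239) or with their median change subtracted (-0.12, limma adjusted p = 0.159), and without FAK KO replicate 1, 2 or 3 or β-catenin ΔGSK replicate 1 or 3 (limma adjusted p between 0.0680 and 0.128). It was also lost with no filter (limma adjusted p = 0.176), a filter of 0.1 FPKM (0.0726), no trend (0.0798) and 1 fit of all 5 lines (0.0601).

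**Figure D3:**
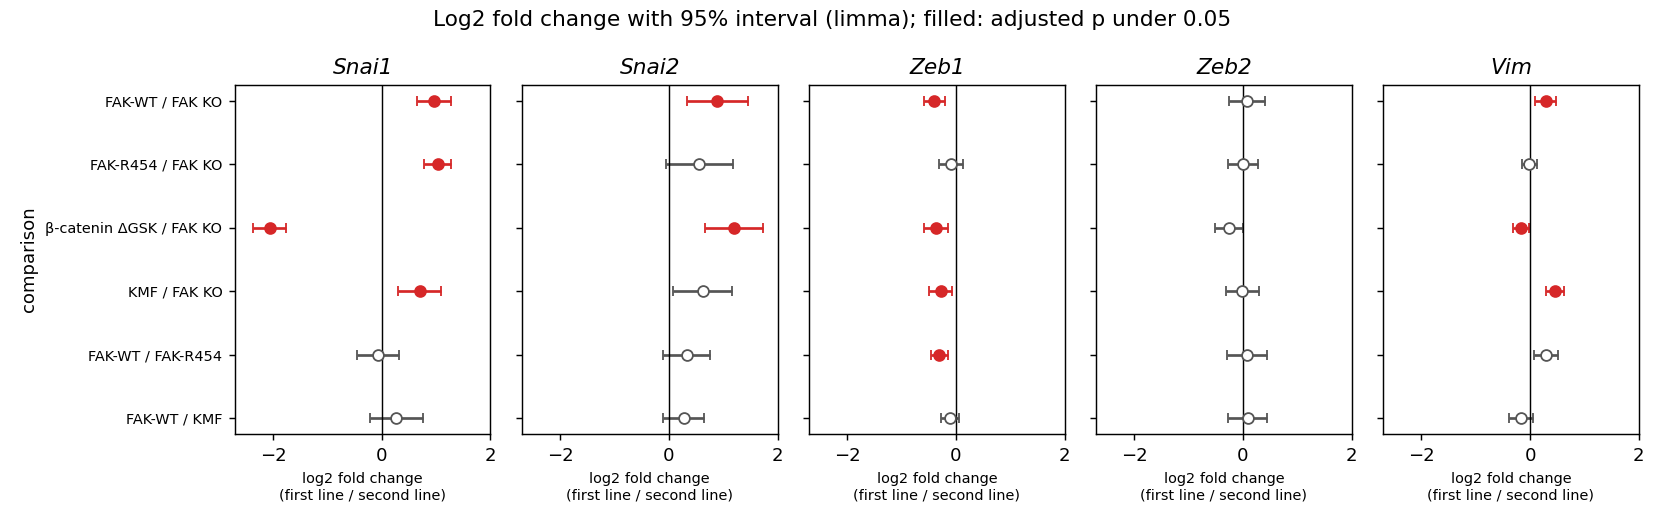
Log2 fold change of the 5 tested genes in 6 comparisons, as first line over second line, with the 95% interval from limma. Filled red points passed at an adjusted p under 0.05. Snai1 lies at -2.06 in β-catenin ΔGSK over FAK KO cells and between 0.70 and 1.03 in the other 3 comparisons with FAK KO cells, and Snai2 is above 0 in all 6 comparisons.

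Twist1 (ENSMUSG00000035799, chr12:33957671-33959817, plus strand) and Twist2 (ENSMUSG00000007805, chr1:91801461-91848028, plus strand) encode basic helix-loop-helix factors. Twist1 had 0 fragments in all 14 libraries, which allows up to 0.0526 to 0.0731 FPKM per library at a floor of 3 fragments. Such floors cover counting error only. Twist2 had 6, 6 and 3 fragments in FAK-WT samples and 5 and 4 in FAK-R454 samples. It had 0, 1 and 1 in KMF samples, 1, 0 and 1 in FAK KO samples, and 0, 1 and 1 in β-catenin ΔGSK samples. Every sample with re-expressed FAK thus held more Twist2 fragments than every other sample, at a total of 30 fragments in 14 libraries. Twist2 was under 1 FPKM in all lines and did not enter the main test. In limma-voom on genes with a mean of at least 5 fragments, a setting chosen after seeing the data, its log2 fold change was 2.26 in FAK-WT over FAK KO cells (SE 0.68, adjusted p = 0.0263) and 2.39 in FAK-WT over KMF cells (SE 0.64, adjusted p = 0.0179). It passed that filter through the FAK-WT samples, so the choice of genes favours a difference. It was not tested that way in FAK-R454 over FAK KO cells, where without any filter its value on the log2(FPKM + 0.1) scale was 0.56 (limma adjusted p = 0.0945). The antisense gene Gm29100, which overlaps Twist2, reached 0.101 FPKM.

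Epcam (ENSMUSG00000045394, chr17:87635979-87651106, plus strand) encodes an adhesion molecule of epithelial cell surfaces. It had 25, 12 and 15 fragments in FAK KO samples, 17, 22 and 12 in KMF samples and 32, 24 and 17 in FAK-WT samples. It had 20 and 18 in FAK-R454 samples and 28, 25 and 39 in β-catenin ΔGSK samples. Its level was 0.539 ± 0.0961 FPKM in β-catenin ΔGSK tumorspheres against 0.298 ± 0.0959 FPKM in those of FAK KO cells (SD, n = 3 each), and on this scale the values of these lines did not overlap. In limma-voom on genes with at least 5 fragments Epcam had a log2 fold change of 0.86 between them (SE 0.31, adjusted p = 0.0377). It was 0.70 with a filter of 0.1 FPKM (limma adjusted p = 0.0380) and did not pass without a filter (limma adjusted p = 0.0665).

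The 250 bases upstream of the Epcam start (chr17:87635729-87635978, plus strand, RefSeq, GRCm38) are shown because it was the other promoter with the E-box letters among the genes whose windows were read. Capitals mark them.
Epcam: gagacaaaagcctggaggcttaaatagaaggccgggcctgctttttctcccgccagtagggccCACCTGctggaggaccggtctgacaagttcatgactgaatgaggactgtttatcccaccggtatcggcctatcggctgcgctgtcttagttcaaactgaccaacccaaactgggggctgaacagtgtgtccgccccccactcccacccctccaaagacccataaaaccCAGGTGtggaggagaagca
There was 1 match on each strand, beginning 187 and 19 bases before the start, and no Tcf/Lef match. The windows of Vim, Twist1, Twist2 and Zeb2 held neither motif.

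Grhl2 (ENSMUSG00000022286, chr15:37233036-37363569, plus strand) and Ovol1 (ENSMUSG00000024922, chr19:5549137-5560575, minus strand) encode factors of the grainyhead and ovo-like families. Grhl2 had 28, 16 and 22 fragments in FAK KO samples, 22, 16 and 27 in FAK-WT samples and 29, 17 and 33 in KMF samples. It had 4 and 13 in FAK-R454 samples and 4, 3 and 8 in β-catenin ΔGSK samples. The last 2 lines lay below all samples of the first 3 lines. In limma-voom on genes with at least 5 fragments, the log2 fold change of Grhl2 was -2.08 in β-catenin ΔGSK over FAK KO cells (SE 0.42, adjusted p = 0.00174) and -1.56 in FAK-R454 over FAK KO cells (SE 0.49, adjusted p = 0.0427). On the log2(FPKM + 0.1) scale with no filter it was -0.92 and passed in β-catenin ΔGSK cells (limma adjusted p = 0.00650), and -0.73 and did not pass in FAK-R454 cells (limma adjusted p = 0.136). Between FAK-WT and FAK-R454 cells it was 1.47 (SE 0.49, limma-voom adjusted p = 0.114). Grhl2 was at or under 0.0550 FPKM in all β-catenin ΔGSK samples, close to the level of 3 fragments. Ovol1 had between 3 and 33 fragments per library. Its KMF values, with 3, 11 and 29 fragments, spanned most of the range of all lines, and it passed in none of the settings in which it could be tested.

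**Figure D4:**
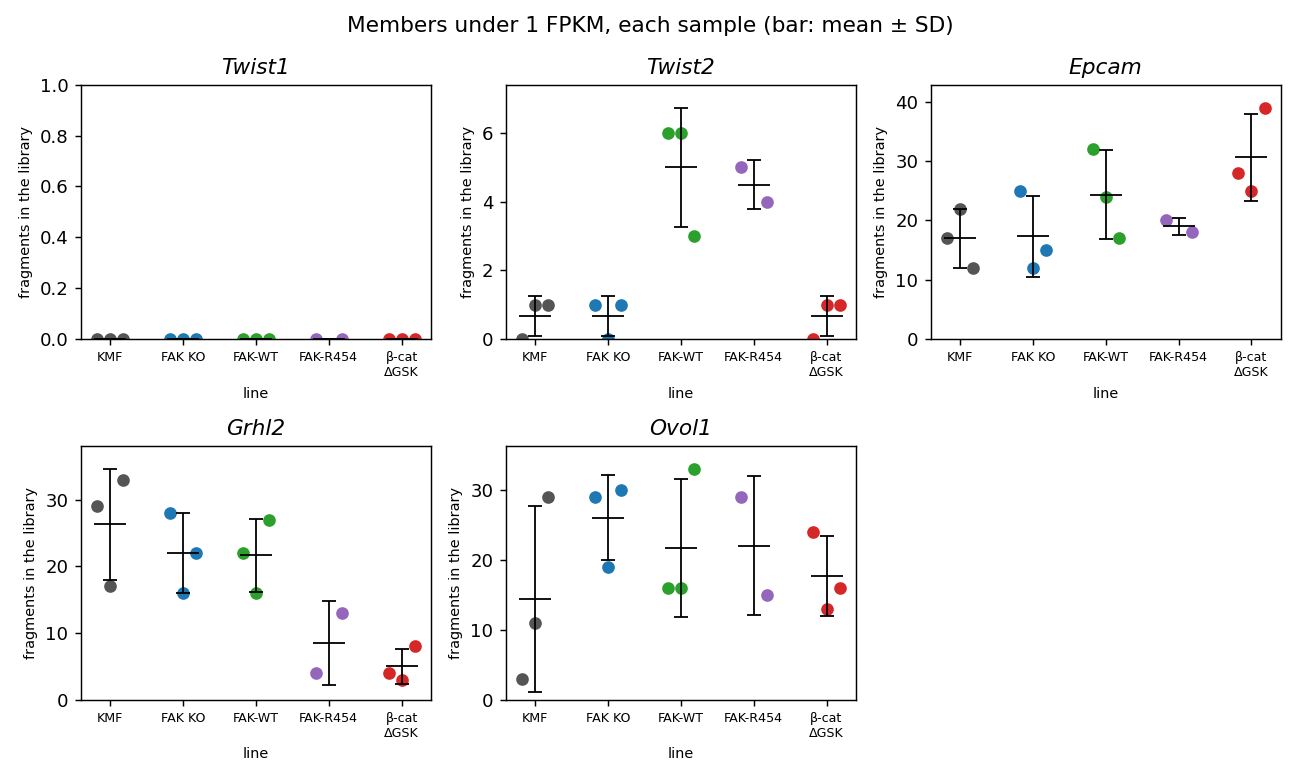
Fragments counted on the 5 genes under 1 FPKM in each of the 14 libraries, with 1 panel per gene, 1 point per library and bars for the mean ± SD of each line. Twist2 has 3 to 6 fragments in FAK-WT and FAK-R454 libraries and 0 or 1 in all others, and Grhl2 has 3 to 13 fragments in FAK-R454 and β-catenin ΔGSK libraries and 16 to 33 in the others.

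The counts of passing genes were read against those of all genes tested. Against FAK KO cells, 3 of the 5 tested genes were higher in FAK-WT cells (Snai1, Snai2 and Vim) and 1 was lower (Zeb1), where 15.6% of all 11841 genes tested were higher and 25.2% lower. Without FAK KO replicate 3 only Snai1 was higher there, and with either correction for chromosomes 0 were lower. In FAK-R454 over FAK KO cells only Snai1 was higher, where 9.78% of all genes were higher and 9.89% lower. None of the 5 genes was lower there by limma, 0 had a negative change at an unadjusted p under 0.05, and limma-voom found 0, or 1 (Grhl2) among genes with at least 5 fragments. In β-catenin ΔGSK over FAK KO cells Snai2 was higher and Snai1, Zeb1 and Vim were lower, where 23.7% of all genes were higher and 34.4% lower. In KMF over FAK KO cells Snai1 and Vim were higher and Zeb1 was lower, where 23.1% of all genes were higher and 28.7% lower. In FAK-WT over FAK-R454 cells Zeb1 was lower and none was higher by limma, where 3.38% of all genes were higher and 4.44% lower. Vim was higher there at an unadjusted p under 0.05, and limma-voom found 0 higher. In FAK-WT over KMF cells 0 of the 5 genes passed in either direction by limma, and 0 had an unadjusted p under 0.05, where 18.2% of all genes were higher and 23.5% lower. There limma-voom found 0 with the same filter and 1 (Twist2) among genes with at least 5 fragments.

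The median log2 fold change of the 5 tested genes against FAK KO cells was 0.29 for FAK-WT, 0.00 for FAK-R454, -0.25 for β-catenin ΔGSK and 0.46 for KMF cells. The medians of all genes tested were -0.08, -0.03, -0.09 and -0.05. With median-of-ratios scaling the share of calls that were higher moved from 38.3% to 52.4% in FAK-WT over FAK KO cells, from 40.8% to 53.3% in β-catenin ΔGSK over FAK KO cells and from 43.2% to 56.7% in FAK-WT over FAK-R454 cells. With the median change of chromosomes subtracted these shares were 53.2%, 50.8% and 56.3%, and with their median level centred 54.0%, 52.5% and 58.9%. In FAK-WT over KMF cells the share moved from 43.6% to 53.9% with the median change subtracted. Median-of-ratios scaling moved the median of all genes in β-catenin ΔGSK over FAK KO cells from -0.09 to 0.01. The call of Snai1 passed in each comparison with FAK KO cells under every alternative tried except a minimum log2 fold change of 1, which removed it in FAK-WT and KMF cells. β-catenin ΔGSK cells were not tested against FAK-WT or KMF cells. Side by side, their Snai1 level was 1.55 ± 0.230 FPKM against 13.4 ± 2.66 FPKM in FAK-WT and 11.2 ± 2.85 FPKM in KMF cells, and their Snai2 level was 2.58 ± 0.391 FPKM against 2.07 ± 0.371 and 1.69 ± 0.247 FPKM (SD, n = 3 each).

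Other genes of the transition were counted from 5 lists. Of 12 other EMT transcription factors, 7 or 8 were tested, and between 0 and 3 passed in either direction in any comparison. In FAK-WT over FAK KO cells 2 were higher and 2 lower, with 1 lower without FAK KO replicate 3 or FAK-WT replicate 2 and 4 lower without FAK-WT replicate 3. With either correction for chromosomes 1 was lower. These counts of 8 genes are near the background of 15.6% higher and 25.2% lower. Foxc1, a forkhead factor, rose in all 4 comparisons with FAK KO cells, by a log2 fold change of 1.00 in FAK-WT cells (SE 0.17, limma adjusted p = 0.00281), 0.74 in FAK-R454 cells, 1.16 in β-catenin ΔGSK cells and 1.45 in KMF cells. Its FAK-R454 call was lost without FAK-R454 replicate 2 and in 1 fit of all 5 lines.

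Of 8 other epithelial transcription and splicing regulators, 2 or 3 were above the filter. In β-catenin ΔGSK over FAK KO cells Grhl1, Elf3 and Esrp2 were higher, where 23.7% of all genes were higher and 34.4% lower. The Esrp2 call was lost with no filter, in 1 fit of all 5 lines, and without FAK KO replicate 3 or β-catenin ΔGSK replicate 2 or 3. Grhl1, the close relative of Grhl2, rose from 0.501 ± 0.00741 to 2.91 ± 0.228 FPKM (SD, n = 3 each), which gave a log2 difference of 2.32 (SE 0.14, limma adjusted p = 2.41e-06). It entered the test through the line in which it was high, so the filter favours a difference. The Ets-family factor Ehf rose in FAK-WT relative to FAK KO cells (1.87, SE 0.21, limma adjusted p = 4.21e-04) and relative to FAK-R454 cells (1.89, limma adjusted p = 0.0121). Ehf also passed the filter through the FAK-WT line, at a mean of 2.88 FPKM against 0.702 and 0.693 FPKM. The second call was lost without FAK-WT replicate 2 or either FAK-R454 replicate. Elf3, of the same family, was highest in KMF cells, with 6.65 ± 0.643 FPKM against 1.94 ± 0.407 FPKM in FAK KO cells (SD, n = 3 each, log2 fold change 1.74, limma adjusted p = 3.01e-05). The splicing factor Esrp1 was at 0 in FAK KO samples and at most 0.0264 FPKM in any sample.

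Of 20 mesenchymal products, 12 or 13 were tested. In FAK-WT over FAK KO cells 8 were higher and 1 was lower, or 2 lower without FAK-WT replicate 3, with a median of 1.17, where 15.6% of all genes were higher and 25.2% lower. In FAK-R454 over FAK KO cells 8 were higher and the other 4 did not pass, with a median of 1.13 (all genes 9.78% higher and 9.89% lower). With chromosomes centred on their median level 7 were higher in this comparison, and the FAK-R454 line has only 2 samples. Against FAK KO cells, β-catenin ΔGSK cells had 3 higher and 8 lower, with a median of -0.38 (all genes 23.7% and 34.4%). In KMF over FAK KO cells 5 were higher and 2 lower, or 1 lower without KMF replicate 1 or FAK KO replicate 3, with a median of 0.21 (all genes 23.1% and 28.7%). The fibrillar collagen genes Col1a1 and Col3a1 were, like Snai1, lowest in β-catenin ΔGSK cells and lower in FAK KO than in KMF, FAK-WT and FAK-R454 cells. Col3a1 was 7.32 ± 1.58 FPKM in FAK KO and 37.6 ± 3.68 in FAK-WT tumorspheres (SD, n = 3 each), with 25.2 ± 1.54 in FAK-R454 tumorspheres (SD, n = 2). Col3a1 was 0.277 ± 0.0259 FPKM in β-catenin ΔGSK tumorspheres (SD, n = 3), with a log2 fold change of -4.28 from FAK KO cells (SE 0.17, limma adjusted p = 2.42e-07), and in KMF cells that value was 2.61 (SE 0.15, limma adjusted p = 3.63e-06). In β-catenin ΔGSK over FAK KO cells Col3a1 passed the filter through the FAK KO line, so the filter favours a difference. The same held for Col1a1, at 1.33 FPKM in FAK KO against 0.194 FPKM in β-catenin ΔGSK cells. The fibroblast marker Pdgfra rose over FAK KO cells by a log2 fold change of 1.72 in the FAK-WT, 1.53 in the FAK-R454 and 1.55 in the KMF line (limma adjusted p between 1.20e-05 and 1.42e-04). In FAK-WT cells the fibroblast markers Dcn (0.20) and Col15a1 (0.05) did not pass. In FAK-R454 cells Col15a1 rose by 0.22 (limma adjusted p = 0.0467) and Dcn (0.14) did not pass. In KMF cells Dcn was -1.57 (limma adjusted p = 5.82e-05) and Col15a1 (-0.14) did not pass. The fibroblast markers above the filter were lower in β-catenin ΔGSK over FAK KO cells too, with log2 fold changes of -4.95 for Col15a1, -1.77 for Pdgfra and -1.36 for Dcn, and their part in the values of the mesenchymal products was not tested. Of all genes tested there, 34.4% were lower. Pdgfra passed that filter through the FAK KO line, at 3.03 FPKM against 0.815 FPKM, so the filter favours a difference. Cdh2, the gene for N-cadherin, fell from FAK-R454 to FAK-WT cells (log2 fold change -0.75, SE 0.05, limma adjusted p = 0.00288), and the call was lost without either FAK-R454 replicate. Cdh2 lies on chromosome 18 like Zeb1, and with the median change of that chromosome subtracted it was -0.53 and passed (limma adjusted p = 0.00654). It also fell relative to FAK KO cells, by 0.84 in the FAK-WT and 0.76 in the KMF line on the log2 scale (limma adjusted p = 8.43e-05 and 3.48e-05). The median log2 fold changes of chromosome 18 in these comparisons were -0.36 and -0.38, and they are not subtracted in these Cdh2 values.

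Of 22 epithelial products, 8 were tested. In FAK-WT over FAK KO cells 4 were higher, or 2 without FAK KO replicate 3, and the other 4 did not pass. Of all genes tested there, 15.6% were higher and 25.2% lower. In β-catenin ΔGSK over FAK KO cells 3 were higher and 4 lower, or 2 lower with median-of-ratios scaling, or without FAK KO replicate 2 or 3 or β-catenin ΔGSK replicate 1 or 2, which is near the 23.7% higher and 34.4% lower of all genes. The keratin gene Krt8 rose in FAK-WT cells by 0.84 (SE 0.10, limma adjusted p = 5.17e-04) and fell in β-catenin ΔGSK cells by 0.81 on the log2 scale (SE 0.09, limma adjusted p = 9.75e-05). Krt8 lies on chromosome 15, where the median of all tested genes for FAK-WT against FAK KO cells was 0.30, and with that median change subtracted its rise was 0.53 and passed (limma adjusted p = 0.00238). In β-catenin ΔGSK cells the junction gene Tjp1 fell as well (-0.68, limma adjusted p = 1.70e-04), while the protease inhibitor gene Spint1 (0.83, limma adjusted p = 7.66e-04), the desmoplakin gene Dsp (0.63, limma adjusted p = 0.00231) and the keratin gene Krt19 (0.55, limma adjusted p = 7.20e-04) rose, and Krt18 was -0.05 (limma adjusted p = 0.644). In KMF over FAK KO cells 2 of the 8 were higher and 3 lower, where 23.1% of all genes were higher and 28.7% lower. Dsp was 1.38, Spint1 -2.62 and the claudin gene Cldn3 -1.56 (limma adjusted p = 1.57e-05, 1.69e-05 and 5.24e-04). Spint1 passed the filter through the FAK KO line, at 2.35 FPKM against 0.305 FPKM in KMF cells. Cdh1, the gene for E-cadherin and a classical target of Snail and Zeb repression, was under the filter. It was 0.760 ± 0.0587 FPKM in KMF cells and 0.0986 ± 0.0578 FPKM in FAK KO cells (SD, n = 3 each), and the lines with added constructs were lower, at 0.0234 ± 0.0154 FPKM (FAK-WT, n = 3), 0.0229 ± 0.00212 FPKM (FAK-R454, n = 2) and 0.0401 ± 0.0117 FPKM (β-catenin ΔGSK, n = 3). Cdh1 had 96 to 111 fragments per KMF library and 7 to 19 per FAK KO library. It had 1 to 5 in FAK-WT, 3 in each FAK-R454 and 3 to 6 in β-catenin ΔGSK libraries, near the floor of 3 fragments. The order of the lines in Cdh1 was not tested.

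All 12 genes listed for TGF-β, a signal that induces Snail and Zeb factors, were tested. In β-catenin ΔGSK over FAK KO cells 8 were lower and 1 was higher, with a median of -0.52, where 34.4% of all genes were lower and 23.7% higher. With median-of-ratios scaling 7 were lower and 3 higher, with chromosomes centred on their median level 5 were lower and 4 higher, and with their median change subtracted 5 and 3. The receptor gene Tgfbr2 was 36.2 ± 0.115 FPKM in β-catenin ΔGSK cells and 82.8 ± 1.61 FPKM in FAK KO cells (SD, n = 3 each), which gave a log2 difference of -1.19 (SE 0.06, limma adjusted p = 5.63e-07). The receptor gene Tgfbr1 had a log2 fold change of -1.50 there (SE 0.13, limma adjusted p = 2.26e-05), and the SMAD corepressor gene Skil had one of -1.70 (SE 0.13, limma adjusted p = 1.26e-05). In FAK-WT over FAK KO cells 3 were higher and 4 lower, or 5 higher and 2 lower with either correction for chromosomes, where 15.6% of all genes were higher and 25.2% lower. In KMF over FAK KO cells 5 were higher and 3 lower (all genes 23.1% and 28.7%), and in FAK-R454 over FAK KO cells 3 were higher and the other 9 did not pass (all genes 9.78% higher). In this last comparison 1 was higher without FAK KO replicate 3 or either FAK-R454 replicate, and 3 were lower without FAK KO replicate 2. The ligand gene Tgfb3 rose in FAK-WT cells by a log2 fold change of 0.63 (limma adjusted p = 0.00160), in FAK-R454 cells by 0.89 (limma adjusted p = 1.59e-04), in KMF cells by 1.13 (limma adjusted p = 1.43e-05) and in β-catenin ΔGSK cells by 0.31 (limma adjusted p = 0.00203).

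**Figure D5:**
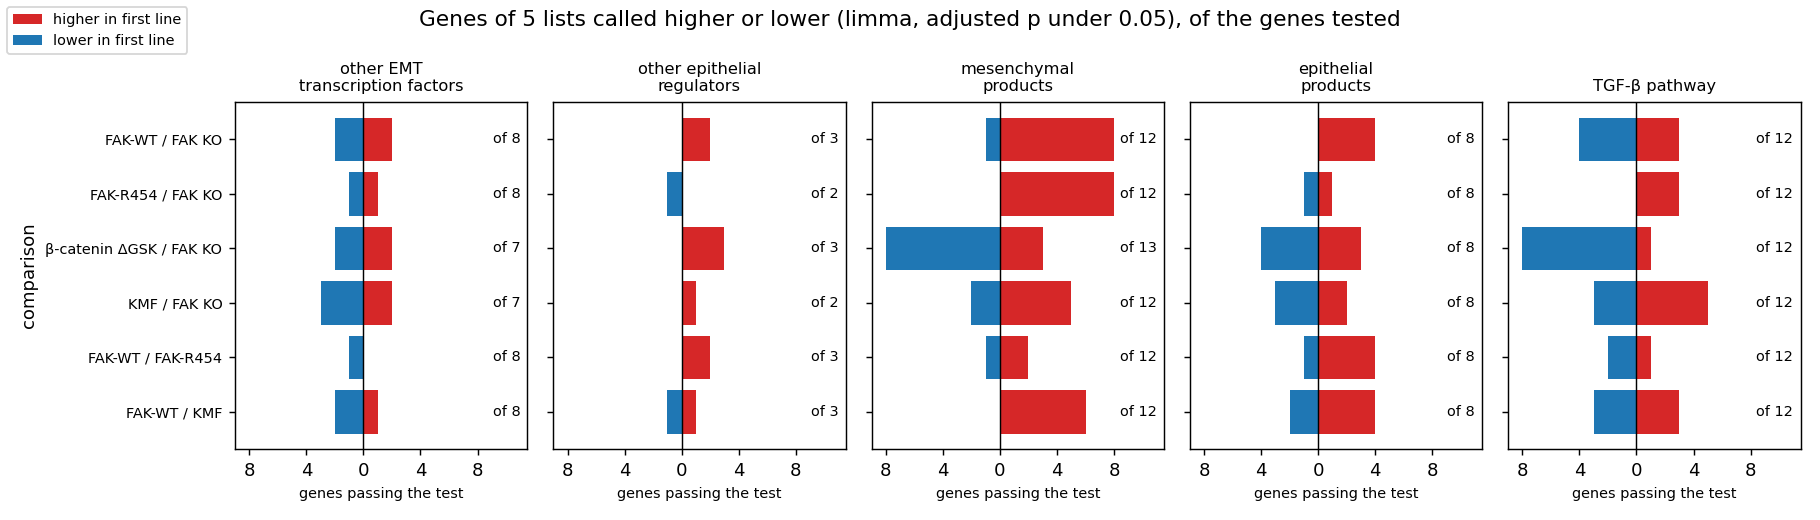
Number of genes of 5 lists that passed as higher (red, right) or lower (blue, left) in the first line of each of 6 comparisons, with the number tested at the right of each row. Mesenchymal products were mostly higher in FAK-WT and FAK-R454 over FAK KO cells (8 of 12 in each) and mostly lower in β-catenin ΔGSK cells (8 of 13), and of the TGF-β genes 8 of 12 were lower in β-catenin ΔGSK cells, or 5 of 12 with either correction for chromosomes.

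Profiles over the 5 lines were compared by the root mean square difference of log2(mean FPKM + 0.1) after centring, among 12255 genes above 1 FPKM in at least 1 line. This describes 5 points per gene, and says nothing of shared control. The nearest profiles to Snai1 were Gm12473, with a difference of 0.137, and Gypc, a red cell membrane glycophorin gene, with 0.160. Both were lowest in β-catenin ΔGSK cells, at 0.127 and 0.361 FPKM, against 1.63 and 3.30 FPKM in FAK-WT cells. The nearest to Snai2 was Ldha, the lactate dehydrogenase A gene, with a difference of 0.0536 and means from 387 FPKM (FAK KO) to 892 FPKM (β-catenin ΔGSK), followed by 6030419C18Rik with 0.0696. The nearest to Zeb1 were Kdm3b, a histone demethylase gene also on chromosome 18, with 0.0244, and Eapp on chromosome 12 with 0.0254. For Vim they were Fam89a with 0.0228 and Ccdc109b with 0.0371.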

How the data were processed

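Poly(A) RNA of tumorspheres was sequenced as paired ends. The authors deposited FPKM per gene. For these files the authors' methods name TopHat2 and DESeq2, while the submitters' processing notes name CASAVA 1.8, STAR 2.5 and mm10. The study's methods describe 3 FAK-R454 samples, and the data used here hold 2.

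FPKM was used as deposited. Multiplied by gene length and divided by the smallest step of a library, 100% of values were whole fragments within 0.01, 25390558 to 35289859 per library (median 28720224). FPKM is scaled to each library's total, so strongly changed genes shift all others. The study's count test was replaced by limma 3.58.1 (R 4.3.3, lmFit and eBayes with trend, 95% intervals) on log2(FPKM + 0.1), which understates the change of low genes. Genes with a mean above 1 FPKM in at least 1 of both lines were tested, with p-values adjusted over all of them. The script was tested on simulated data. Exact permutation of 3 against 3 samples cannot go below p = 0.1 and was not used.

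The 10 genes and all lists were chosen with earlier results of these data known. Named were all 10 genes, Ptk2, the 2 nearest profiles per gene, and per list and comparison at most 3 passing genes with the largest change. Ctnnb1, Cdh1, Esrp1, Cdh2 against FAK KO cells, Tgfb3, Dsp, Krt18, Krt19 and Msln in β-catenin ΔGSK cells and overlapping genes were added after their values were seen. So were the values of Dcn and Col15a1 that did not pass. Some genes of the lists are counted but not reported here by name. Alternatives were other filters, pseudocounts and scalings, chromosomes centred on their median level or with their median change subtracted, limma-voom on recovered fragments, 1 fit of all lines, a replicate block and leaving out each sample.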

Additional observations from a re-analysis of the deposited data

How the results depend on the processing

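For single genes, 350 of the values under alternatives other than leaving out a sample kept direction and side of the threshold, 29 lost the threshold, 12 gained it and 17 changed sign. With 1 sample left out, 134 kept both, 18 lost the threshold, 4 gained it and 14 changed sign. The causes of the changes below were not tested. Depth limits the 5 genes under 1 FPKM, at 0 to 39 fragments per library.

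Signs changed only for log2 fold changes near 0 and for Zeb1. With median-of-ratios scaling these were Vim in FAK-R454 over FAK KO (0.0112) and Zeb2 in KMF over FAK KO cells (0.0395). With chromosomes centred on their median level they were Zeb1 (0.0149) and Vim (0.0802) in FAK-R454, Zeb1 in β-catenin ΔGSK (0.1146), Zeb1 (0.1634) and Zeb2 (0.0301) in KMF over FAK KO cells, and Snai1 in FAK-WT over FAK-R454 cells (0.0143). With the median change of each chromosome subtracted, added after seeing the data, they were Zeb1 (0.0494) and Vim (0.0989) in FAK-R454, Zeb1 in β-catenin ΔGSK (0.0110), and Zeb1 (0.0985) and Zeb2 (0.0803) in KMF over FAK KO cells. With limma-voom, under either filter, Zeb2 was -0.0006 in FAK-R454 over FAK KO cells. With 1 sample left out, Zeb2 ran from -0.0720 to 0.1777 in FAK-WT over FAK KO, from -0.0504 to 0.1053 in FAK-R454 over FAK KO, from -0.1198 to 0.0933 in KMF over FAK KO, from -0.0745 to 0.1519 in FAK-WT over FAK-R454 and from -0.0625 to 0.1948 in FAK-WT over KMF cells. Vim ran from -0.0295 to 0.0087 in FAK-R454 over FAK KO, and Snai1 from -0.2232 to 0.0396 in FAK-WT over FAK-R454 cells.

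Counts of passing genes changed as follows. In FAK-WT over FAK KO cells, against 3 higher, 2 were higher with no filter (Snai1 and Twist2) and above 5 FPKM, and 4 in limma-voom with at least 5 fragments. With either correction for chromosomes, 0 were lower in FAK-WT, 1 in β-catenin ΔGSK and 0 in KMF over FAK KO cells and 0 between FAK-WT and FAK-R454 cells, and with the median level centred 1 (Zeb1) was lower in FAK-WT over KMF cells. With the median change subtracted, 1700 of all 11841 genes were lower in FAK-WT and 3329 of 11915 in β-catenin ΔGSK over FAK KO cells. The same count was 2462 of 11893 in KMF over FAK KO and 258 of 11782 in FAK-WT over FAK-R454 cells. With the median level centred it was 1728 of 11847 in FAK-WT over KMF cells. With a minimum log2 fold change of 1, 0 were higher and 0 lower in FAK-WT and KMF over FAK KO cells, 1 was lower in β-catenin ΔGSK over FAK KO cells, with 0 lower between FAK-WT and FAK-R454 cells. Of all genes with this minimum, 344 of 11841 were higher and 203 lower in FAK-WT over FAK KO cells. In KMF over FAK KO cells 472 of 11893 were higher and 481 lower. There were 833 of 11915 lower in β-catenin ΔGSK over FAK KO and 88 of 11782 in FAK-WT over FAK-R454 cells. With no filter, 0 were lower in KMF over FAK KO and between FAK-WT and FAK-R454 cells, and 1 (Twist2) was higher in FAK-WT over KMF cells. Of all genes without a filter, 3774 of 21783 were lower in KMF over FAK KO and 353 of 21499 in FAK-WT over FAK-R454 cells. In FAK-WT cells 1816 of 21848 were higher over FAK KO and 2521 of 21682 over KMF cells. In β-catenin ΔGSK over FAK KO cells 2 were higher at a filter of 0.1 FPKM and 0 at 5 FPKM, where Snai2 was not tested. In limma-voom with at least 5 fragments, 1 (Grhl2) was lower in FAK-R454, 2 were higher and 5 lower in β-catenin ΔGSK over FAK KO cells, and 1 (Twist2) was higher in FAK-WT over KMF cells. Of all genes tested in that setting, 3296 of 15398 were higher and 5150 lower in β-catenin ΔGSK over FAK KO cells. In FAK-R454 over FAK KO cells 1539 of 15525 were lower. In FAK-WT cells 2255 of 15514 were higher over FAK KO and 2774 of 15492 over KMF cells. In FAK-WT over FAK-R454 cells 0 were lower at 0.1 FPKM, with median-of-ratios scaling, without the trend and in 1 fit of all 5 lines, where 1 (Vim) was higher. With 1 sample left out, 1 to 3 were higher in FAK-WT and 1 to 2 in FAK-R454 over FAK KO cells, 0 to 1 lower in KMF over FAK KO cells, 0 to 1 higher and 0 to 1 lower in FAK-WT over FAK-R454 cells, and 0 to 1 lower in FAK-WT over KMF cells. Of 79 named values of listed genes, 53 passed in the same direction under every alternative without a minimum fold, and 1 changed sign.

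The correlation of deviations between same-numbered samples was between -0.245 and 0.445, and exceeded 0.1 for every pair in no comparison. In β-catenin ΔGSK over FAK KO cells its mean was 0.267, and 2 of 3 samples correlated best with their own number. In FAK-WT over KMF cells 2 of 3 did so too, and in the other comparisons with FAK KO cells 0 did. The replicate block moved calls over all genes in β-catenin ΔGSK over FAK KO cells from 2828 higher and 4100 lower to 3330 and 4823. It lowered them in FAK-WT, FAK-R454 and KMF over FAK KO cells and in FAK-WT over KMF cells. Whether same-numbered samples shared a batch was not tested. With the replicate number as a block, 1 gene was higher (Vim) and 2 lower (Snai1 and Zeb1) in FAK-WT over FAK-R454 cells, where calls over all genes went from 398 higher and 523 lower to 1567 and 1826. FAK-R454 has no replicate 3, so this block also takes FAK-WT replicate 3 out of the contrast, and both choices change at once. Zeb2 was -0.0504 in FAK-R454 over FAK KO and -0.0745 between FAK-WT and FAK-R454 cells under this block. In KMF over FAK KO cells Snai2 and in β-catenin ΔGSK over FAK KO cells Zeb2 passed with it.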
